A study of Rattus norvegicus with 65 samples.

Results

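Genes of the p53 pathway outside the Bcl2 family were followed in rat heart muscle cells exposed to 3 drugs. They are p53's own inhibitors and genes that are well known as p53 targets. The list was drawn up by gene name, not by a threshold on measured values, but with earlier results of these data known. It held 32 rat genes. Of these, 30 are among the 14554 genes of the count table and all 30 were tested, while Tnfrsf10b and Pidd1 were not analysed here. Every one of the 30 had at least 26 estimated reads in every library, so low counts did not limit their tests. Genes with low counts had been removed from the table beforehand by the authors.

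RNA sequencing was done on primary neonatal rat cardiomyocytes, heart muscle cells isolated from newborn rats, that were starved of serum overnight before exposure. They were treated for 6 or 24 h with 10 mM 5-fluorouracil (5FU), 2.5 mM acetaminophen (Ace) or 1.25 μM doxorubicin (Dox). Each drug was compared with cells that received its own amount of solvent for the same time, 1% DMSO for 5FU (DMSO1) and 0.25% DMSO for Ace and Dox (DMSO2), so Ace and Dox share their control libraries. The 10 groups held 6 or 7 libraries each, 65 in all. The heart cells of several litters were collected on the same day, mixed into a single pool and divided over the dishes. The libraries of a group are therefore parallel cultures of mixed cells. The errors and p-values below measure the spread between cultures, not between animals or cell preparations.

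p53 is a transcription factor that is held at low levels by the ubiquitin ligase Mdm2 and rises in cells with damaged DNA or disturbed nucleotide pools. It then switches on genes that stop the cell cycle, repair DNA, change metabolism or start cell death, and also the genes of its own inhibitors, which close a feedback loop. Dox binds DNA and poisons topoisomerase II, and 5FU disturbs thymidylate synthesis and RNA processing, so both are textbook inducers of this pathway. Ace is a painkiller whose overdose is known for oxidative damage to the liver. Heart muscle cells leave the cell cycle soon after birth, and p53 is studied there for its part in the heart damage that Dox causes.

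p53 binds DNA as a tetramer, at sites built of a pair of copies of a palindromic half-site of 10 bases. RefSeq promoter windows of the rat assembly GRCr8, from 250 bases before the start of a gene to 50 after it, were found for 26 of the 30 genes and searched for such sites. A site was a pair of half-sites up to 13 bases apart with at most 2 mismatches over both. The half-site reads the same on both strands, so a site counts for both. A site was found in 6 of the 26 windows (23.1%) and in 424 of the 11403 windows of genes in the table (3.72%). A half-site without any mismatch was found in 7 of the 26 (26.9%) and in 841 of all windows (7.38%). The windows of Tp53inp1, Zmat3, Rrm2b and Cd82 were not analysed here. The 6 sites are printed as matches to the pattern that p53 is known to read in DNA. Half-sites are in capitals, sequences run 5′ to 3′ on the strand of the gene, and positions count from the first base of the gene as 0.
Cdkn1a, chr20:7150706-7150775, plus strand, site at -201 to -182 with 1 mismatch: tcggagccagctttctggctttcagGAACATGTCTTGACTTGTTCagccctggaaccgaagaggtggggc
Gtse1, chr7:118830117-118830186, plus strand, site at -31 to -12 with 1 mismatch: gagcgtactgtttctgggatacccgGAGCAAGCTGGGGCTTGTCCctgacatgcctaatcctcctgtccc
Aen, chr1:142224478-142224547, plus strand, site at -30 to -11 with 2 mismatches: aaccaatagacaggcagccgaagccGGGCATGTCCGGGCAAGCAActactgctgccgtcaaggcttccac
Ccng1, chr10:25685074-25685126, minus strand, site at -242 to -223 with 1 mismatch: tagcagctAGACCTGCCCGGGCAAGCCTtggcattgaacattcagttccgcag
Sesn1, chr20:46948509-46948581, plus strand, site at -185 to -163 with a gap of 3 bases and 2 mismatches: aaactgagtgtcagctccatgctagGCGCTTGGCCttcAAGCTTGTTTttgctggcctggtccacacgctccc
Gadd45a, chr4:97486813-97486893, minus strand, site at -69 to -39 with a gap of 11 bases and 1 mismatch: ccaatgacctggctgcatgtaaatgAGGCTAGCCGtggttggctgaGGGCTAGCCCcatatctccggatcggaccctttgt
A match is a likeness of letters and no proof of binding, and a window without one says nothing about sites elsewhere. Cdkn1a, Gtse1, Aen and Ccng1 were higher with all 3 drugs at 24 h, whereas Sesn1 and Gadd45a were not, as described with each gene.

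The library totals ran from 14332827 to 25738297 estimated reads. Levels are given as CPM, the estimated reads of a gene divided by the library total after scaling with edgeR's TMM factors and expressed per 1000000. CPM is not divided by gene length, so the levels of different genes are not compared. A log2 fold change of 1 is a doubling. Genes were called higher or lower at a false discovery rate (FDR) below 0.01, the Benjamini-Hochberg adjusted p of edgeR's quasi-likelihood test over all 14554 genes, from 1 model of all 10 groups. Of the 65 libraries, 59 lay nearest on average to their own group, and the other 6 were control libraries that lay nearest to the other DMSO group of the same time. Defining markers of cardiomyocytes (9 of 10 in the table, among them Tnnt2, Myh6 and Actc1) were present in every library and summed to 39259.5 to 68904.6 CPM in the controls. Fibroblast markers (10 genes) summed to 6998 to 20549 CPM there.

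One control library has to be known before the results. Library 1 of DMSO1 at 24 h (libraries are numbered only as labels) lay above the 5 other DMSO1 libraries and the 7 DMSO2 libraries of that time for 22 of the 30 genes, and below them all for 2, Mdm4 and Cd82. Over all genes the shares were 20.5% above and 22.1% below. No other control library at 24 h lay above all the rest for more than 3 of the 30 genes. Among the controls at 6 h the highest counts were 10 and 7 genes, in the DMSO1 libraries numbered 1 and 6 of that time. Over all genes their shares above were 11.6% and 10.6%. In library 1 of DMSO1 at 24 h the Cdkn1a level was 699 CPM against 95.8 to 114 (median 109.98) in the other 5 libraries, and its Ephx1 level was 137 CPM against 16.5 to 21.7 (median 17.03). For Mdm2, Fas, Aen, Eda2r, Ephx1, Ccng1, Rps27l and Zmat3, among others, it lay within or above the range of the 5FU libraries. On average over all genes it still lay nearest to its own group. The reason was not tested, and the library was kept in the comparisons. For the 30 genes, the main counts and the 24 h values of 5FU against DMSO1 are given with it and without it. So are many other values whose call it changes, and the words "without library 1" below always mean this library. Differences between times or drugs are given without it for some genes only. The single values of other pathway genes and all marker calls are given only with it kept.

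**Figure D1:**
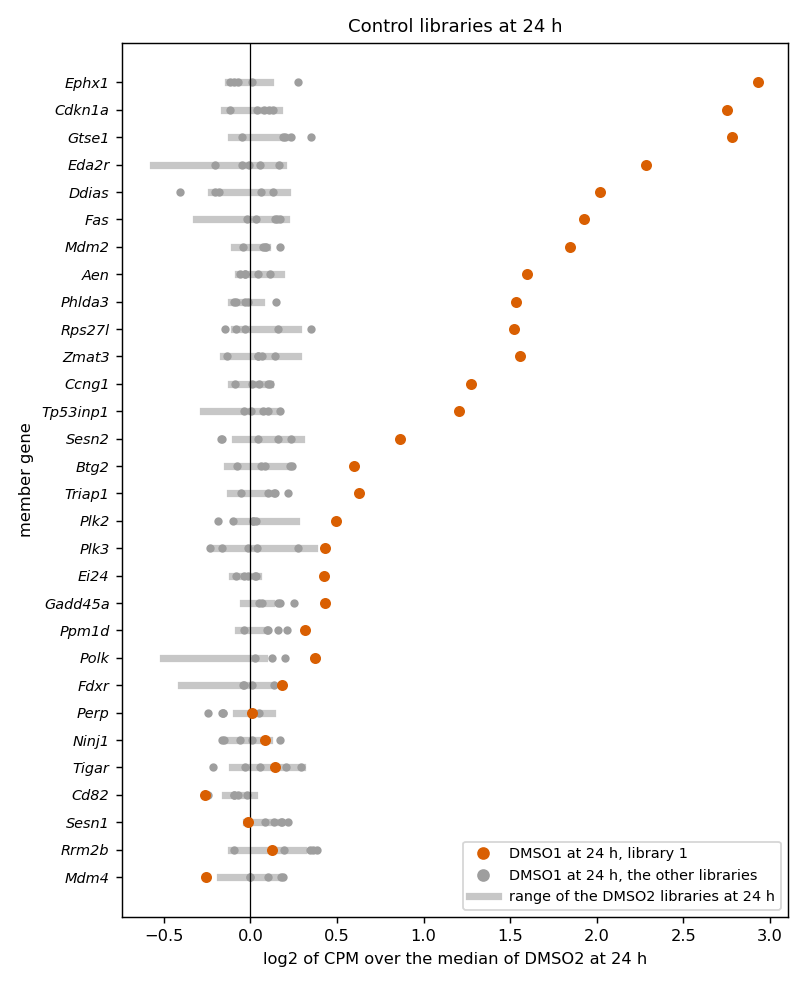
Level of each gene in the control libraries at 24 h, as log2 of CPM over the median of DMSO2 (0 on the horizontal axis); the large orange point is library 1 of DMSO1, small grey points are the other 5 DMSO1 libraries and bars span the 7 DMSO2 libraries. Library 1 lies to the right of all the others for 22 of the 30 genes, most for Ephx1, Gtse1 and Cdkn1a, and to the left of all for Mdm4 and Cd82.

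With Dox at 24 h nearly the whole list was higher than in DMSO2, with Ddias, Gtse1, Btg2 and Cdkn1a at the top, and the median responses to 5FU and Ace were smaller. Of the 30 genes, 26 were called higher and 2 lower with Dox at 24 h, where 40.4% of all genes were called higher and 41% lower. With 5FU at 24 h 22 were higher and 2 lower, against 28% and 27.8% of all genes, and without library 1 the counts were 23 and 2, against 28.6% and 28.5%. With Ace at 24 h 22 were higher and 2 lower, against 18.2% and 19.1% of all genes. At 6 h 21 were higher and none lower with 5FU (23.4% and 24.5% of all genes). No gene of the list had an unadjusted p under 0.05 in the lower direction there, and DESeq2 also called 0 lower. With Dox at 6 h 21 were higher and 4 lower (31.5% and 32.7%). With Ace at 6 h 10 were higher and 2 lower (16.5% and 15.2%). All groups share 1 estimate of the spread per gene, so library 1 also touches these calls. Without it 14 were called higher with Ace at 6 h (17.1% of all genes) and 2 lower (15.7%), with Dox at 6 h 22 and 4 (31.8% and 33%) and with 5FU at 6 h 21 and 0 as before (23.9% and 24.9%).

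The ranges of the libraries give a picture that does not rest on the test, although the levels carry the same TMM scaling. With Dox at 24 h all drug libraries lay above all control libraries for 26 genes (33.6% of all genes), with Ace at 24 h for 20 (13.2%) and with 5FU at 24 h for 10 (22.3%), or for 19 without library 1 (26.8% of all genes). At 6 h they did so for 21 genes with Dox (19.7%), for 18 with 5FU (13.8%) and for 11 with Ace (12.4%).

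The median log2 fold change over the 30 genes was 1.79 with Dox, 0.73 with 5FU and 0.41 with Ace at 24 h, against 0.00, -0.01 and 0.00 over all genes. Without library 1 the 5FU median was 0.88, against -0.01. At 6 h the medians were 0.85 with Dox, 0.66 with 5FU and 0.22 with Ace, against 0.00, 0.00 and 0.00 over all genes. The TMM scaling holds the bulk of genes near 0, so the medians over all genes largely follow from it. The fold changes are relative to that bulk. In 22 of the 30 genes the group with the highest median CPM was Dox at 24 h, and in 6 it was 5FU at 24 h. The shares over all genes were not computed for this count. By their median log2 fold changes the drugs' responses stood in the order Dox, 5FU, Ace at both times, although single genes departed from it.

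**Figure D2:**
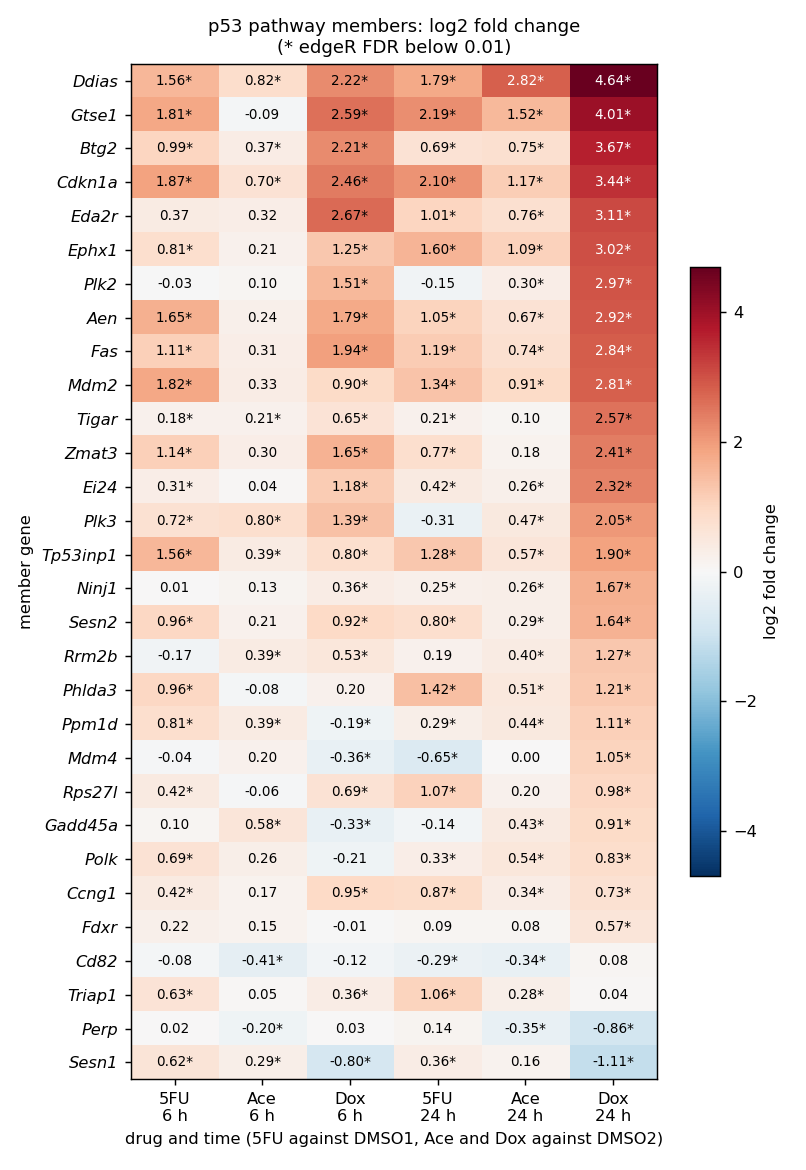
Log2 fold change of each of the 30 genes (lines) in each drug group against its own DMSO control (columns), with the values printed and a star where the edgeR FDR was below 0.01; red is higher and blue lower in the drug group. The Dox column at 24 h is red for all but a few genes, led by Ddias at 4.64 and ending with Sesn1 at -1.11.

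Sorted by drug, 17 of the 30 genes were higher with all 3 drugs at 24 h, as were 5.87% of all genes. They were Mdm2, Ppm1d, Cdkn1a, Ccng1, Ei24, Gtse1, Sesn2, Btg2, Tp53inp1, Phlda3, Fas, Aen, Polk, Eda2r, Ephx1, Ninj1 and Ddias, and the same 17 were found without library 1 (6.19% of all genes). At 6 h the shared genes were 6 (3.56% of all genes), Cdkn1a, Btg2, Tp53inp1, Ddias, Plk3 and Tigar, and without library 1 they were 10 (3.77%), with Mdm2, Fas, Aen and Zmat3 added. Cdkn1a, Btg2, Tp53inp1 and Ddias were higher in all 6 drug comparisons, a set of 4 (1.37% of all genes) that became 7 without library 1 (1.58%), by Mdm2, Fas and Aen. Both sets hang on small Ace responses at 6 h. With library 1 kept, leaving out any other single library gave 3 to 6 shared genes at 6 h, the lowest without library 1 or 2 of Ace or library 1 or 7 of DMSO2 at 6 h, and 1 to 4 genes in all 6 comparisons. The count at 24 h stayed at 16 or 17 when any library was left out. Calls of small changes were lost in some of these fits, for Ephx1 and Rps27l with 5FU at 6 h in 5 of 12 each (edgeR FDR up to 0.019 and 0.021), for Polk with 5FU at 24 h in 3 of 12 (0.018), for Plk2 with Ace at 24 h in 4 of 14 (0.013), for Sesn1 with Ace at 6 h in 2 of 13 (0.011) and for Tigar with 5FU at 24 h in 1 of 12 (0.017). Others are given with the gene. A gene was counted as specific to 1 drug if it was called for that drug and not called in the same direction for the others, and if its response also differed from that to each of the other drugs at an FDR below 0.01. By this rule Plk2, Eda2r and Ninj1 were higher with Dox alone at 6 h, Phlda3 and Polk with 5FU alone and Gadd45a with Ace alone. Ppm1d, Sesn1 and Gadd45a were lower with Dox alone at 6 h and Cd82 with Ace alone. These are 9 genes, where 31.5% of all genes met the rule. Without library 1 they were 8 (31.8%), since Phlda3 at 6 h was then also called with Dox. Plk2, Ninj1 and Gadd45a also differed between DMSO1 and DMSO2 at 6 h, so their comparisons with 5FU rest partly on unlike controls. At 24 h Mdm4 and Fdxr were higher with Dox alone, Sesn1 was lower with Dox alone and Mdm4 was lower with 5FU alone, 3 genes where 45% of all genes met the rule. Without library 1 Perp, higher with 5FU, made them 4 (44.6%).

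The 3 inhibitors of p53 behaved differently from each other. Mdm2, the ligase that marks p53 for destruction, was higher with each drug at 24 h and rose most with Dox. At 6 h it stood at 60.04 to 76.8 (median 65.6) CPM in DMSO1 and 191 to 319.7 (median 225) in 5FU, a log2 fold change of 1.82 (SE 0.16, edgeR FDR 1.6e-15). In DMSO2 it was 59.2 to 63.5 (median 62.1) CPM, in Ace 73.7 to 80.5 (median 77.7) and in Dox 89.96 to 132 (median 119) at that time. None of the 3 drug groups overlapped its control at 6 h. edgeR's log2 fold change was 0.90 (SE 0.14, edgeR FDR 1.4e-07) with Dox and 0.33 (SE 0.15, edgeR FDR 0.068, and 0.33 with SE 0.076 and FDR 0.00025 without library 1) with Ace, which moved across the threshold. At 24 h the levels were 49.8 to 56.9 (median 53.1) CPM in DMSO2, 81.5 to 112 (median 103) in Ace and 308 to 412 (median 369) in Dox, again with no overlap, and the log2 fold changes were 0.91 (SE 0.15, edgeR FDR 4e-07) and 2.81 (SE 0.15, edgeR FDR 3.6e-26). In 5FU it was 185 to 216 (median 197) CPM at 24 h and in the other 5 DMSO1 libraries 51.6 to 59.7 (median 56.3), whereas library 1 had 191, inside the range of 5FU. With 5FU at 24 h the log2 fold change was 1.34 (SE 0.16, edgeR FDR 3.6e-11, and 1.83 with SE 0.086 and FDR 2.1e-27 without library 1).

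Mdm4, the relative of Mdm2 that binds p53 and blocks its activity, moved in opposite directions. At 24 h it was 28.7 to 39.2 (median 35.6) CPM in DMSO1 and 21.7 to 24.4 (median 22.2) in 5FU, and 30.4 to 38.8 (median 34.3) in DMSO2, 32.3 to 38.05 (median 34.96) in Ace and 60.9 to 77.7 (median 74.5) in Dox. All 5FU libraries lay below all DMSO1 libraries and all Dox libraries lay above all DMSO2 libraries, while Ace overlapped DMSO2. Its log2 fold change at 24 h was -0.65 (SE 0.093, edgeR FDR 1.3e-08, and -0.70 with SE 0.095 and FDR 2.3e-09 without library 1) with 5FU, 0.00 (SE 0.084, edgeR FDR 0.98) with Ace and 1.05 (SE 0.083, edgeR FDR 2.8e-18) with Dox. At 6 h it was lower with Dox, at 13.7 to 21.8 (median 16.2) CPM against 18.6 to 25.7 (median 20.7) in DMSO2 with overlapping ranges, and the log2 fold change was -0.36 (SE 0.090, edgeR FDR 0.00033). The Dox response at 24 h minus that at 6 h was 1.41 (SE 0.12, edgeR FDR 4e-16), so the direction turned between the times. With 5FU and Ace at 6 h the values were -0.04 and 0.20, which did not pass the test.

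Ppm1d, a phosphatase that removes activating phosphates from p53 and from the checkpoint kinases, also turned with Dox. At 6 h its level was 18.6 to 24.3 (median 20.6) CPM in DMSO1 and 32.7 to 41.2 (median 37.2) in 5FU, and 19.1 to 23.3 (median 21.6) in DMSO2, 26.5 to 30.6 (median 28.6) in Ace and 16.04 to 21.7 (median 19.4) in Dox. The 5FU and Ace libraries lay wholly above their controls, and the Dox libraries overlapped DMSO2 at its lower side. In log2 fold change this was 0.81 (SE 0.068, edgeR FDR 5.5e-16) with 5FU, 0.39 (SE 0.066, edgeR FDR 1.4e-06) with Ace and -0.19 (SE 0.065, edgeR FDR 0.0076) with Dox at 6 h. At 24 h it was 20.3 to 22.7 (median 21.3) CPM in DMSO2, 27.9 to 31.8 (median 28.6) in Ace and 40.4 to 51.6 (median 46.3) in Dox, and 20.8 to 26.5 (median 23.3) in DMSO1 and 25.5 to 30.8 (median 29.03) in 5FU. Dox and Ace lay above DMSO2, with log2 fold changes of 1.11 (SE 0.063, edgeR FDR 4.9e-25) and 0.44 (SE 0.064, edgeR FDR 2.5e-08). The 5FU value was 0.29 (SE 0.069, edgeR FDR 0.00023, and 0.33 with SE 0.072 and FDR 6.9e-05 without library 1). The Dox response changed by 1.30 (SE 0.091, edgeR FDR 3.8e-20) from 6 to 24 h. Its lower call with Dox at 6 h is weak, since it was lost in 9 of the 14 fits that left out 1 library, with log2 fold changes from -0.22 to -0.15 and an edgeR FDR of up to 0.036.

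Of the genes that stop the cell cycle, Cdkn1a, which encodes the cyclin-dependent kinase inhibitor p21, was higher in all 6 comparisons. Its level at 6 h was 134 to 212 (median 171) CPM in DMSO1 and 525 to 715 (median 643) in 5FU, and 134 to 155 (median 143) in DMSO2, 225 to 241 (median 232) in Ace and 601 to 909 (median 812) in Dox. Every drug library lay above every library of its control. The log2 fold changes were 1.87 (SE 0.24, edgeR FDR 6.3e-10) with 5FU, 2.46 (SE 0.22, edgeR FDR 3.4e-15) with Dox and 0.70 (SE 0.22, edgeR FDR 0.0088, and 0.70 with SE 0.086 and FDR 9.3e-10 without library 1) with Ace. With library 1 kept, the Ace call at 6 h was lost when any 1 of the 13 Ace and DMSO2 libraries was left out, at a log2 fold change of 0.68 to 0.71 and an edgeR FDR of 0.011 to 0.016. At 24 h DMSO2 was at 93.4 to 116 (median 104) CPM, Ace at 179.8 to 268 (median 239) and Dox at 908 to 1407 (median 1080.2), with log2 fold changes of 1.17 (SE 0.22, edgeR FDR 7.7e-06) and 3.44 (SE 0.23, edgeR FDR 3.2e-21) and no overlap. 5FU was at 841 to 913 (median 889) CPM. Against all DMSO1 libraries that was a log2 fold change of 2.10 (SE 0.24, edgeR FDR 1.6e-11, and 3.04 with SE 0.10 and FDR 5.4e-34 without library 1). The gap between Dox and 5FU at 24 h shrank in the same way, from 1.34 to 0.40 on the log2 scale (edgeR FDR 0.00013 and 0.0035).

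Ccng1, which encodes cyclin G1, a partner of protein phosphatase 2A in the control of Mdm2, differed from most genes in that 5FU took it highest. At 24 h it was 1869.7 to 2071 (median 1967) CPM in 5FU, 1351 to 1546 (median 1383) in Dox and 998 to 1152 (median 1075) in Ace, against 796 to 928 (median 859) in DMSO2 and 807 to 929.9 (median 889) in the 5 other DMSO1 libraries. Library 1 of DMSO1 had 2077 CPM, above all 5FU libraries. The log2 fold change at 24 h was 0.87 (SE 0.11, edgeR FDR 3.3e-10, and 1.16 with SE 0.064 and FDR 4.4e-24 without library 1) for 5FU, 0.73 (SE 0.10, edgeR FDR 1.9e-09) for Dox and 0.34 (SE 0.10, edgeR FDR 0.0034) for Ace. Dox minus 5FU was -0.14 (95% interval -0.44 to 0.15, edgeR FDR 0.38) with all libraries and -0.44 (SE 0.084, edgeR FDR 5e-06) without library 1. At 6 h Dox and 5FU did not overlap their controls, with log2 fold changes of 0.95 (SE 0.10, edgeR FDR 9.9e-13) and 0.42 (SE 0.11, edgeR FDR 0.00074), and Ace was at 0.17 (SE 0.10, edgeR FDR 0.18).

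Btg2 encodes an anti-proliferative protein that works with the CCR4-NOT deadenylase. At 24 h Dox stood far from the other drugs, at 432 to 758 (median 610.05) CPM against 41.5 to 53.6 (median 45.6) in DMSO2, 61.1 to 87.3 (median 77.9) in Ace and 81.01 to 89.8 (median 84.2) in 5FU. The DMSO1 libraries had 43.2 to 68.9 (median 50.9) CPM, and no drug group overlapped its control. Its log2 fold change was 3.67 (SE 0.12, edgeR FDR 9.2e-38) with Dox, 0.75 (SE 0.11, edgeR FDR 6e-08) with Ace and 0.69 (SE 0.12, edgeR FDR 9.6e-07, and 0.78 with SE 0.12 and FDR 1e-07 without library 1) with 5FU. At 6 h the levels were 125 to 196 (median 164) CPM with Dox, 38.8 to 48.5 (median 45.1) with Ace and 31.9 to 37.8 (median 33.6) in DMSO2, and 63.1 to 121 (median 77.9) with 5FU and 32.7 to 50.7 (median 43.4) in DMSO1, once more without overlap. The 6 h log2 fold changes were 2.21 (SE 0.11, edgeR FDR 3.4e-26), 0.37 (SE 0.12, edgeR FDR 0.009) and 0.99 (SE 0.12, edgeR FDR 1.7e-10) in that order of drugs. The Ace call at 6 h was lost in 10 of the 13 fits that left out 1 library, with log2 fold changes of 0.34 to 0.41 and an edgeR FDR of up to 0.024.

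Gtse1 is a microtubule-binding protein of the S and G2 phases that carries p53 out of the nucleus. It was 11.8 to 14.8 (median 12.8) CPM in DMSO2 at 24 h, 23.4 to 45.03 (median 40.2) in Ace and 177 to 247 (median 214) in Dox. In 5FU it was 116 to 132 (median 122), in library 1 of DMSO1 88.03 and in the 5 other DMSO1 libraries 12.4 to 16.3 (median 14.7). All 3 drug groups lay above their controls. The response in log2 was 4.01 (SE 0.23, edgeR FDR 7.9e-25) with Dox, 1.52 (SE 0.22, edgeR FDR 4.8e-08) with Ace and 2.19 (SE 0.23, edgeR FDR 9.2e-13, and 3.08 with SE 0.12 and FDR 9.1e-31 without library 1) with 5FU. The 6 h level was 124 to 169 (median 158) CPM in Dox and 82.8 to 130.04 (median 108) in 5FU against 21.8 to 27.9 (median 26.03) in DMSO2 and 26.9 to 37.3 (median 29.9) in DMSO1, both without overlap, with log2 fold changes of 2.59 (SE 0.21, edgeR FDR 5.2e-17) and 1.81 (SE 0.22, edgeR FDR 2.9e-10). Ace at 6 h overlapped DMSO2, at 21.97 to 26.2 (median 23.5) CPM and a log2 fold change of -0.09 (SE 0.22, edgeR FDR 0.78). The Ace response was thus larger at 24 h than at 6 h by 1.61 (SE 0.32, edgeR FDR 0.0001). Markers of proliferating cells (11 genes, among them Mki67 and Top2a, none at 0 in a group) were mostly higher with Ace at 24 h as well. Their summed level was 352 to 614 CPM in Ace at 24 h against 248 to 308 in DMSO2, 9 of the 11 were called higher and none lower, and at 6 h 8 were called lower and none higher with Ace. With Dox and 5FU at 24 h, where Gtse1 was also higher, the marker sums were 225 to 327 and 261 to 311 CPM. The sums in their controls were 248 to 308 CPM in DMSO2 and 303 to 350 in DMSO1. The part of these markers in the Gtse1 result was not tested.

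**Figure D3:**
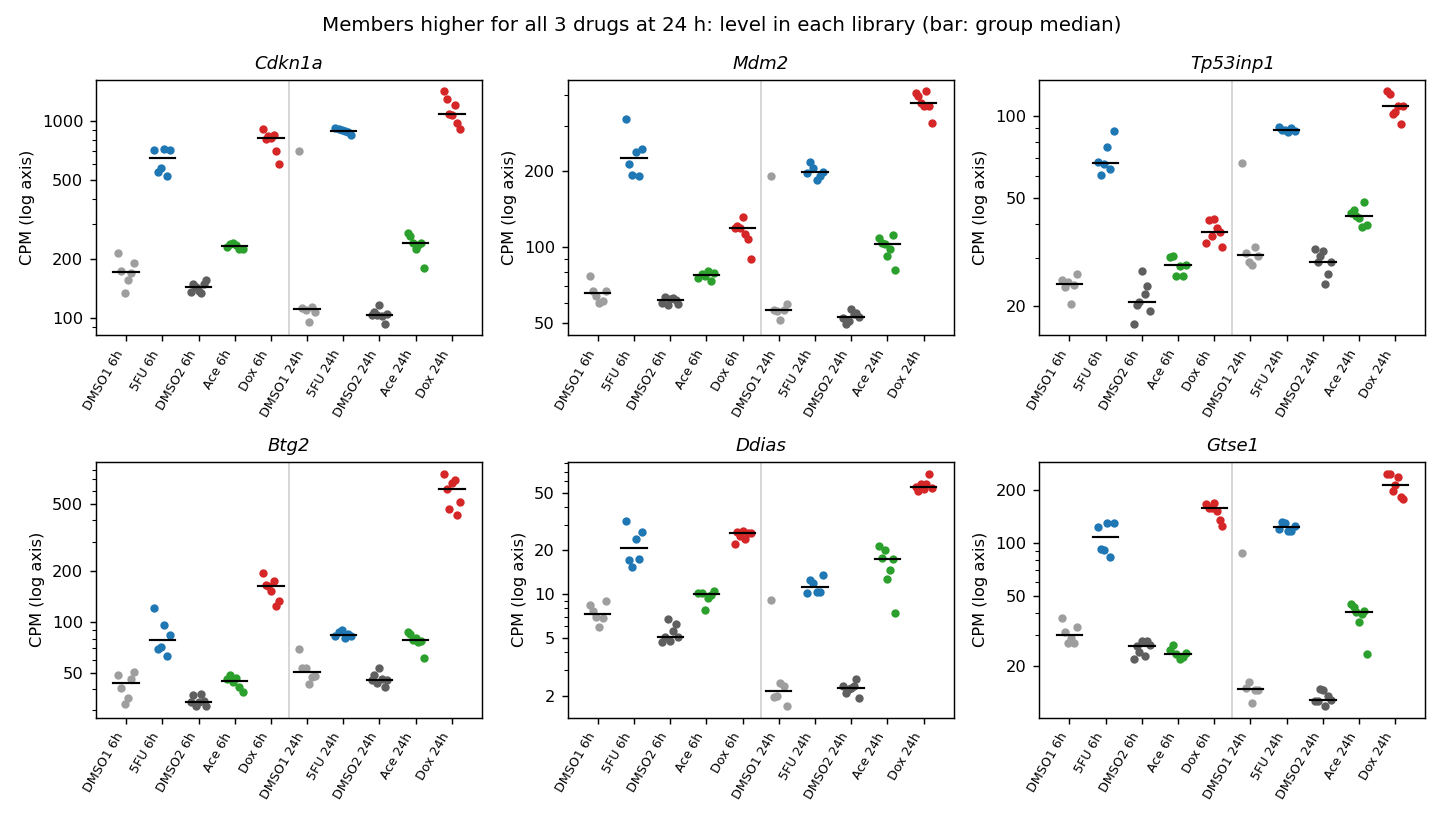
CPM (log axis) of 6 genes that were higher with all 3 drugs at 24 h, in each library of the 10 groups; each point is a library, the bar is the group median, and the vertical line parts 6 h from 24 h. The single high grey point in DMSO1 at 24 h is library 1, and Dox at 24 h has the highest median for all 6 genes.

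Plk2 and Plk3 encode polo-like kinases of the stress response, and both split the drugs. Plk2 was 149.8 to 171 (median 163) CPM in Dox at 6 h against 53.8 to 60.1 (median 57.5) in DMSO2 and 57.6 to 65.8 (median 60.3) in Ace, and 67.01 to 95.6 (median 80.7) in 5FU against 49.5 to 106 (median 87.6) in DMSO1. Dox lay wholly above DMSO2, and the other drug groups overlapped their controls. DMSO1 was itself called higher than DMSO2 at 6 h (medians 87.6 and 57.5 CPM), so the comparison of Dox with 5FU rests partly on unlike controls. The log2 fold change at 6 h was 1.51 (SE 0.090, edgeR FDR 4.3e-23) with Dox, 0.10 (SE 0.094, edgeR FDR 0.43) with Ace and -0.03 (SE 0.096, edgeR FDR 0.79) with 5FU. At 24 h Dox reached 418 to 524 (median 475) CPM against 55.3 to 69.4 (median 57.7) in DMSO2, a log2 fold change of 2.97 (SE 0.094, edgeR FDR 2.7e-38). Ace was at 71.2 to 80.04 (median 74.5) CPM and 0.30 (SE 0.090, edgeR FDR 0.0046), just above all DMSO2 libraries. With 5FU the level was 52.4 to 55.7 (median 54.4) CPM and the log2 fold change -0.15 (SE 0.098, edgeR FDR 0.17, and -0.05 with SE 0.096 and FDR 0.69 without library 1).

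Plk3 was shared at 6 h. It was 3.12 to 6.23 (median 4.21) CPM in 5FU and 2.003 to 3.46 (median 2.47) in DMSO1, whose ranges overlapped, and 3.76 to 5.64 (median 4.94) in Ace and 5.82 to 9.91 (median 7.196) in Dox against 2.37 to 3.15 (median 2.903) in DMSO2, without overlap. The log2 fold changes at 6 h were 0.72 (SE 0.18, edgeR FDR 0.00036), 0.80 (SE 0.17, edgeR FDR 5.6e-05) and 1.39 (SE 0.16, edgeR FDR 6.5e-12). At 24 h Dox was at 9.59 to 22.98 (median 16.1) CPM, Ace at 4.56 to 6.28 (median 5.08) and DMSO2 at 2.97 to 4.46 (median 3.45), with log2 fold changes of 2.05 (SE 0.15, edgeR FDR 1e-19) and 0.47 (SE 0.16, edgeR FDR 0.0092), the latter lost in 9 of 14 fits that left out 1 library (log2 fold change 0.42 to 0.52, edgeR FDR up to 0.027). With 5FU the 24 h value was -0.31 (SE 0.18, edgeR FDR 0.12, and -0.23 with SE 0.19 and FDR 0.3 without library 1), and the 5FU response at 24 h minus that at 6 h was -1.04 (SE 0.25, edgeR FDR 0.00045).

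Among the genes of cell death, the receptors came first. Fas, the death receptor that recruits caspase-8, was higher with all 3 drugs at 24 h. It was 5.39 to 7.705 (median 6.69) CPM in DMSO2, 9.69 to 12.6 (median 11.1) in Ace and 43.2 to 52.4 (median 48.5) in Dox, in separate ranges. 5FU was at 20.9 to 25.7 (median 23.4) CPM, library 1 of DMSO1 at 25.4 and the 5 others at 6.601 to 7.53 (median 7.38). The log2 fold change was 2.84 (SE 0.16, edgeR FDR 8.3e-26) with Dox, 0.74 (SE 0.16, edgeR FDR 9.1e-05) with Ace and 1.19 (SE 0.16, edgeR FDR 3.1e-09, and 1.72 with SE 0.099 and FDR 3.1e-23 without library 1) with 5FU. At 6 h Dox and 5FU had log2 fold changes of 1.94 (SE 0.15, edgeR FDR 4.2e-18) and 1.11 (SE 0.16, edgeR FDR 3.8e-08). Ace at 6 h was at 9.899 to 12.1 (median 10.7) CPM, above all DMSO2 libraries at 8.04 to 9.46 (median 8.77), and its call turned on library 1, with 0.31 (SE 0.16, edgeR FDR 0.12, and 0.31 with SE 0.090 and FDR 0.0038 without library 1).

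Eda2r, the receptor of ectodysplasin A2 in the TNF receptor family, was specific to Dox at 6 h. It was 37.9 to 49.4 (median 40.9) CPM in Dox and 4.97 to 8.19 (median 6.98) in DMSO2, while Ace, at 6.41 to 10.3 (median 8.099), and 5FU, at 7.16 to 14.2 (median 8.84), overlapped their controls. Dox gave a log2 fold change of 2.67 (SE 0.21, edgeR FDR 1.5e-17), Ace 0.32 (SE 0.24, edgeR FDR 0.29) and 5FU 0.37 (SE 0.24, edgeR FDR 0.19). By 24 h all 3 were higher, with 75.5 to 98.2 (median 84.5) CPM in Dox, 13.5 to 20.8 (median 16.9) in Ace and 6.96 to 11.8 (median 10.3) in DMSO2. 5FU was at 27.7 to 37.9 (median 35.5) CPM, below library 1 of DMSO1 at 50.1 and above the 5 other libraries at 8.93 to 11.5 (median 10.2). The log2 fold changes at 24 h were 3.11 (SE 0.21, edgeR FDR 8.8e-22), 0.76 (SE 0.21, edgeR FDR 0.0019) and, for 5FU, 1.01 (SE 0.21, edgeR FDR 3.4e-05, and 1.74 with SE 0.14 and FDR 1.3e-17 without library 1).

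Aen encodes an exonuclease that takes part in the breakdown of DNA in dying cells. It was higher with both 5FU and Dox at 6 h, from 29.9 to 43.3 (median 36.6) to 96.2 to 136 (median 112) CPM and from 30.3 to 35.3 (median 32.8) to 96.4 to 130.2 (median 112) CPM, with log2 fold changes of 1.65 (SE 0.14, edgeR FDR 9.1e-16) and 1.79 (SE 0.13, edgeR FDR 5.1e-19). The Dox minus 5FU difference was 0.14 (95% interval -0.24 to 0.52, edgeR FDR 0.56). With Ace at 6 h the level was 35.98 to 40.2 (median 38.5) CPM and the log2 fold change 0.24 (SE 0.14, edgeR FDR 0.17, and 0.24 with SE 0.073 and FDR 0.0066 without library 1). At 24 h Dox was at 245 to 282 (median 272) CPM, Ace at 42.4 to 64.8 (median 58.3) and DMSO2 at 33.3 to 39.4 (median 34.9), without overlap. The log2 fold changes were 2.92 (SE 0.14, edgeR FDR 1.8e-29) and 0.67 (SE 0.13, edgeR FDR 2e-05). For 5FU at 24 h, with 94.7 to 101 (median 97.7) CPM, 106 in library 1 and 33.5 to 37.8 (median 34.2) in the 5 other DMSO1 libraries, the log2 fold change was 1.05 (SE 0.14, edgeR FDR 1.5e-09, and 1.47 with SE 0.081 and FDR 2.2e-24 without library 1).

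Tp53inp1, a stress protein of autophagy and apoptosis, was higher in all 6 comparisons. At 6 h it was 60.9 to 88.4 (median 67.0) CPM in 5FU against 20.3 to 26.3 (median 24.2) in DMSO1, and 32.97 to 41.9 (median 37.6) in Dox and 25.7 to 30.5 (median 28.3) in Ace against 17.3 to 27.03 (median 20.7) in DMSO2. The ranges of Ace and DMSO2 overlapped there, through 1 high DMSO2 library. 5FU gave the larger change at 6 h, with log2 fold changes of 1.56 (SE 0.12, edgeR FDR 2.8e-18), 0.80 (SE 0.11, edgeR FDR 2e-09) for Dox and 0.39 (SE 0.11, edgeR FDR 0.0043) for Ace (lost in 4 of 13 fits that left out 1 library, FDR up to 0.013), and Dox minus 5FU was -0.76 (SE 0.16, edgeR FDR 3.7e-05). At 24 h the order was turned, with 93.4 to 123 (median 109) CPM in Dox, 87.1 to 91.2 (median 88.97) in 5FU and 39.1 to 48.5 (median 42.9) in Ace. Library 1 of DMSO1 was at 67.3 CPM, the 5 others at 28.4 to 32.9 (median 30.7) and DMSO2 at 24.2 to 32.5 (median 29.2), so no drug group overlapped its control. The log2 fold changes at 24 h were 1.90 (SE 0.11, edgeR FDR 2.7e-25) with Dox, 0.57 (SE 0.11, edgeR FDR 8.9e-06) with Ace and 1.28 (SE 0.11, edgeR FDR 2.5e-15, and 1.55 with SE 0.084 and FDR 1.6e-24 without library 1) with 5FU.

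Ei24 encodes a membrane protein of the endoplasmic reticulum needed for autophagy. Dox took it to 348 to 434 (median 411) CPM at 24 h, against 75.5 to 83.9 (median 81.3) in DMSO2, 86.9 to 103 (median 95.5) in Ace and 112 to 119 (median 114) in 5FU. DMSO1 was at 76.9 to 109 (median 81.7) CPM with library 1 as its highest. All 3 drug groups lay above their controls, but the log2 fold changes differed in size, 2.32 (SE 0.050, edgeR FDR 1.8e-47) with Dox against 0.26 (SE 0.048, edgeR FDR 9.2e-06) with Ace and 0.42 (SE 0.052, edgeR FDR 1.4e-10, and 0.51 with SE 0.045 and FDR 1.8e-15 without library 1) with 5FU. At 6 h Dox and 5FU did not overlap their controls, at 1.18 (SE 0.048, edgeR FDR 2.5e-31) and 0.31 (SE 0.052, edgeR FDR 6e-07), and Ace was at 0.04 (SE 0.050, edgeR FDR 0.51).

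Phlda3, a repressor of the survival kinase Akt, was higher with 5FU at both times and with the other drugs at 24 h. At 6 h its level was 261 to 339.7 (median 307) CPM in 5FU and 123 to 188 (median 159) in DMSO1, without overlap, whereas Dox, at 134 to 165 (median 149.7), and Ace, at 116 to 128 (median 123), overlapped DMSO2 at 114 to 146 (median 129). edgeR's log2 fold change was 0.96 (SE 0.14, edgeR FDR 1.4e-08) with 5FU, -0.08 (SE 0.13, edgeR FDR 0.67) with Ace and 0.20 (SE 0.13, edgeR FDR 0.15, and 0.20 with SE 0.067 and FDR 0.0062 without library 1) with Dox. At 24 h all 3 drugs were above their controls, with 376 to 416 (median 381) CPM in 5FU, 202 to 289.5 (median 267) in Dox, 135 to 187 (median 157) in Ace and 102 to 116 (median 111) in DMSO2. Library 1 of DMSO1 was at 320.3 CPM, still below all 5FU libraries, and the 5 others at 104 to 123 (median 109). The 24 h log2 fold changes were 1.42 (SE 0.14, edgeR FDR 6.9e-14, and 1.82 with SE 0.079 and FDR 4.1e-29 without library 1) for 5FU, 1.21 (SE 0.13, edgeR FDR 2.2e-13) for Dox and 0.51 (SE 0.13, edgeR FDR 0.0006) for Ace. Dox minus 5FU at 24 h was -0.21 (95% interval -0.58 to 0.16, edgeR FDR 0.31) with all libraries and -0.61 (SE 0.10, edgeR FDR 2.7e-07) without library 1.

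Ninj1 encodes the protein that ruptures the plasma membrane of dying cells. Its level at 6 h was 70.7 to 85.3 (median 76.7) CPM in Dox against 54.3 to 66.6 (median 58.9) in DMSO2, 62.9 to 69.6 (median 64.7) in Ace, and 64.5 to 79.4 (median 71.2) in 5FU against 63.3 to 79.04 (median 70.9) in DMSO1. Only Dox lay wholly above its control, with a log2 fold change of 0.36 (SE 0.056, edgeR FDR 8.1e-08) against 0.13 (SE 0.058, edgeR FDR 0.077) for Ace and 0.01 (SE 0.060, edgeR FDR 0.86) for 5FU. DMSO1 was itself called higher than DMSO2 at 6 h, and the 5FU median (71.2) lay nearer to that of Dox (76.7) than to that of DMSO2 (58.9). The difference between Dox and 5FU at 6 h therefore rests partly on unlike controls. At 24 h Dox was at 135 to 165 (median 143) CPM and DMSO2 at 41.5 to 49.4 (median 45.8), a log2 fold change of 1.67 (SE 0.057, edgeR FDR 1.6e-36). Ace, at 48.3 to 57.2 (median 56.2) CPM, and 5FU, at 49.3 to 58.3 (median 54.4) against 40.9 to 51.6 (median 45.1) in DMSO1, overlapped their controls but passed the test, with 0.26 (SE 0.057, edgeR FDR 0.00012) and 0.25 (SE 0.062, edgeR FDR 0.00043, and 0.27 with SE 0.065 and FDR 0.0003 without library 1).

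Zmat3, an RNA-binding zinc finger protein, was higher with Dox and 5FU at both times, with log2 fold changes of 1.65 (SE 0.13, edgeR FDR 3.5e-18) and 1.14 (SE 0.13, edgeR FDR 6.1e-11) at 6 h and 2.41 (SE 0.13, edgeR FDR 1.3e-26) and 0.77 (SE 0.14, edgeR FDR 1.2e-06, and 1.17 with SE 0.083 and FDR 2.7e-19 without library 1) at 24 h. With Ace it was 0.30 (SE 0.14, edgeR FDR 0.068, and 0.30 with SE 0.077 and FDR 0.00096 without library 1) at 6 h and 0.18 (SE 0.13, edgeR FDR 0.27) at 24 h. Triap1, an inhibitor of apoptosis that moves lipids in mitochondria, rose more with 5FU than with Dox. Its medians at 24 h were 65.02 CPM in 5FU, 29.9 in DMSO1, 27.2 in Dox, 33.3 in Ace and 27.2 in DMSO2. At 24 h the log2 fold change was 1.06 (SE 0.066, edgeR FDR 2.3e-21, and 1.16 with SE 0.060 and FDR 2.6e-25 without library 1) with 5FU, 0.28 (SE 0.063, edgeR FDR 0.00017) with Ace and 0.04 (SE 0.063, edgeR FDR 0.57) with Dox, and Dox minus 5FU was -1.02 (SE 0.092, edgeR FDR 1.2e-15, and -1.12 with SE 0.081 and FDR 1.3e-19 without library 1). At 6 h it was 0.63 (SE 0.067, edgeR FDR 3.4e-12) with 5FU, 0.36 (SE 0.062, edgeR FDR 8.8e-07) with Dox and 0.05 (SE 0.065, edgeR FDR 0.57) with Ace, and the Dox response at 24 h minus that at 6 h was -0.32 (SE 0.089, edgeR FDR 0.0012). Perp, a membrane protein of cell contacts and apoptosis, was lower with Dox and Ace at 24 h. Its medians at 24 h were 108 CPM in Dox and 151 in Ace against 194 in DMSO2, with log2 fold changes of -0.86 (SE 0.052, edgeR FDR 7e-24) and -0.35 (SE 0.051, edgeR FDR 3.1e-08). With 5FU at 24 h the value was 0.14 (SE 0.055, edgeR FDR 0.019, and 0.17 with SE 0.057 and FDR 0.0082 without library 1), on either side of the threshold. At 6 h it was -0.20 (SE 0.054, edgeR FDR 0.0017) with Ace, 0.03 (SE 0.051, edgeR FDR 0.64) with Dox and 0.02 (SE 0.056, edgeR FDR 0.76) with 5FU.

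Of the genes of DNA repair and nucleotide supply, Ddias had the largest Dox response of the 30 at 24 h. Ddias, whose product suppresses apoptosis after DNA damage, was at 1.92 to 2.603 (median 2.25) CPM in DMSO2 at 24 h, 7.47 to 21.6 (median 17.4) in Ace and 51.04 to 67.8 (median 54.5) in Dox. In 5FU it was 10.1 to 13.6 (median 11.2) CPM, in library 1 of DMSO1 9.11 and in the 5 others 1.697 to 2.46 (median 1.98). No drug group overlapped its control. In log2 fold change this was 4.64 (SE 0.21, edgeR FDR 2.1e-30) with Dox, 2.82 (SE 0.21, edgeR FDR 6.9e-18) with Ace and 1.79 (SE 0.22, edgeR FDR 1.9e-10, and 2.46 with SE 0.19 and FDR 1.3e-17 without library 1) with 5FU, and 19 genes of the whole table had a larger value with Ace at 24 h. The 6 h level was 22.3 to 27.05 (median 26.3) CPM in Dox and 7.74 to 10.5 (median 10.0) in Ace against 4.71 to 6.69 (median 5.09) in DMSO2, and 15.3 to 31.7 (median 20.7) in 5FU against 5.98 to 8.98 (median 7.26) in DMSO1, all apart. The 6 h log2 fold changes were 2.22 (SE 0.18, edgeR FDR 5.8e-17), 0.82 (SE 0.20, edgeR FDR 0.00048) and 1.56 (SE 0.19, edgeR FDR 2.2e-10). The Ace response was larger at 24 h, by 2.0 (SE 0.29, edgeR FDR 3.1e-07), at the time when the markers of proliferating cells described with Gtse1 were higher with Ace, and their part in it was not tested.

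Gadd45a, a small protein of growth arrest and repair, was higher with Ace at 6 h, when it was lower with Dox. At 6 h it was 135 to 145 (median 139.8) CPM in Ace and 61.9 to 90.04 (median 70.6) in Dox against 82.2 to 99.8 (median 93.9) in DMSO2, and 144 to 155 (median 149) in 5FU against 89.2 to 162 (median 144) in DMSO1. Ace lay wholly above DMSO2, and Dox, mostly below it, overlapped it. The response in log2 was 0.58 (SE 0.076, edgeR FDR 3.5e-09) with Ace, -0.33 (SE 0.074, edgeR FDR 6.3e-05) with Dox and 0.10 (SE 0.078, edgeR FDR 0.26) with 5FU. The controls themselves differed at 6 h, DMSO1 over DMSO2 by 0.57 (SE 0.076, edgeR FDR 3.4e-08). By 24 h Dox had turned to 134 to 188 (median 154) CPM against 79.1 to 88.3 (median 81.4) in DMSO2, a log2 fold change of 0.91 (SE 0.074, edgeR FDR 7.3e-18), and the change from 6 h was 1.24 (SE 0.10, edgeR FDR 1.1e-16). Ace was at 103 to 116 (median 114) CPM and 0.43 (SE 0.073, edgeR FDR 1.6e-06), and 5FU at 83.4 to 86.7 (median 84.0) CPM and -0.14 (SE 0.080, edgeR FDR 0.12, and -0.09 with SE 0.081 and FDR 0.36 without library 1).

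Polk, a DNA polymerase that copies past damaged bases, was specific to 5FU at 6 h. It was 8.36 to 10.1 (median 9.12) CPM in 5FU and 5.36 to 6.297 (median 5.65) in DMSO1, without overlap, and 5.897 to 7.21 (median 6.68) in Ace and 4.09 to 5.34 (median 4.80) in Dox against 4.198 to 6.54 (median 5.86) in DMSO2. The log2 fold change was 0.69 (SE 0.096, edgeR FDR 8.4e-09) with 5FU, 0.26 (SE 0.094, edgeR FDR 0.019) with Ace and -0.21 (SE 0.094, edgeR FDR 0.039) with Dox. The Ace value passed the test in 3 of the 13 fits that left out 1 library (edgeR FDR down to 0.0079), and the Dox value in 1 of 14, as lower (0.0071). At 24 h it was higher with all 3, at 5.69 to 8.37 (median 7.02) CPM in Dox, 4.798 to 6.66 (median 5.72) in Ace and 2.91 to 4.35 (median 4.12) in DMSO2, and 4.67 to 6.99 (median 6.34) in 5FU against 4.19 to 5.35 (median 5.02) in DMSO1 with overlap. The values were 0.83 (SE 0.094, edgeR FDR 4e-12), 0.54 (SE 0.095, edgeR FDR 2.1e-06) and 0.33 (SE 0.10, edgeR FDR 0.0034, and 0.36 with SE 0.11 and FDR 0.0027 without library 1). Rrm2b, the subunit of ribonucleotide reductase that supplies nucleotides outside S phase, was higher with Ace and Dox at both times. Its log2 fold changes were 0.39 (SE 0.094, edgeR FDR 0.00058) and 0.53 (SE 0.090, edgeR FDR 4.4e-07) at 6 h and 0.40 (SE 0.091, edgeR FDR 0.00024) and 1.27 (SE 0.089, edgeR FDR 1.4e-20) at 24 h. With 5FU it was -0.17 (SE 0.098, edgeR FDR 0.13) at 6 h and 0.19 (SE 0.099, edgeR FDR 0.085, and 0.17 with SE 0.10 and FDR 0.15 without library 1) at 24 h.

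In the group of metabolic and redox genes the sestrins went apart. Sesn1 and Sesn2 encode proteins that restrain mTORC1 in stressed cells. Sesn1 was lower with Dox at both times, at 26.01 to 32.4 (median 29.9) CPM against 47.5 to 56.1 (median 50.6) in DMSO2 at 6 h and 17.8 to 41.3 (median 22.3) against 53.2 to 61.1 (median 54.2) at 24 h, with no overlap. The log2 fold changes were -0.80 (SE 0.086, edgeR FDR 1.2e-12) and -1.11 (SE 0.086, edgeR FDR 1.3e-18). It was higher at 6 h with 5FU, at 62.2 to 74.8 (median 66.95) CPM against 38.8 to 53.3 (median 42.8) in DMSO1, and with Ace, at 59.4 to 63.9 (median 62.1), by 0.62 (SE 0.090, edgeR FDR 2e-08) and 0.29 (SE 0.086, edgeR FDR 0.0048). At 24 h 5FU was at 74.1 to 79.6 (median 76.4) CPM against 53.8 to 63.05 (median 60.4) in DMSO1, with 0.36 (SE 0.089, edgeR FDR 0.00029, and 0.34 with SE 0.093 and FDR 0.0012 without library 1), and Ace at 58.8 to 65.6 (median 63.02) and 0.16 (SE 0.082, edgeR FDR 0.097). The Dox response differed from that of 5FU by -1.42 (SE 0.12, edgeR FDR 1.5e-15) at 6 h and -1.47 (SE 0.12, edgeR FDR 7.2e-17, and -1.44 with SE 0.13 and FDR 5.7e-16 without library 1) at 24 h.

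Sesn2 went the other way with Dox. At 24 h it was 251 to 340.1 (median 300.3) CPM in Dox and 103 to 125 (median 116) in Ace against 85.04 to 111 (median 90.4) in DMSO2, and 175 to 192 (median 181) in 5FU against 165 in library 1 of DMSO1 and 80.4 to 106 (median 93.3) in the 5 others. Dox and 5FU lay above their controls and Ace overlapped DMSO2. edgeR's log2 fold change was 1.64 (SE 0.091, edgeR FDR 1.9e-25) with Dox, 0.29 (SE 0.090, edgeR FDR 0.0066) with Ace and 0.80 (SE 0.097, edgeR FDR 1.1e-10, and 0.98 with SE 0.082 and FDR 2.5e-16 without library 1) with 5FU. The Ace call was lost in 6 of 14 fits that left out 1 library (edgeR FDR up to 0.019). At 6 h Dox and 5FU gave 0.92 (SE 0.091, edgeR FDR 5.2e-14) and 0.96 (SE 0.098, edgeR FDR 7.2e-13) in ranges apart from their controls, and Ace gave 0.21 (SE 0.094, edgeR FDR 0.065).

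Tigar, an enzyme that lowers glycolytic flux and favours the pentose phosphate pathway, stood out for its time course with Dox. It was 31.4 to 34.6 (median 33.02) CPM in Dox at 6 h and 65.5 to 72.4 (median 70.5) at 24 h, while DMSO2 went from 20.1 to 23.3 (median 20.6) to 10.5 to 13.9 (median 11.3). The log2 fold change went from 0.65 (SE 0.051, edgeR FDR 1.1e-17) to 2.57 (SE 0.054, edgeR FDR 6.5e-48). Ace was at 23.3 to 25.9 (median 24.3) CPM at 6 h and 11.9 to 13.3 (median 12.6) at 24 h, with log2 fold changes of 0.21 (SE 0.054, edgeR FDR 0.0011) and 0.10 (SE 0.056, edgeR FDR 0.15). 5FU was at 22.7 to 26.8 (median 24.1) CPM against 19.6 to 23.2 (median 21.8) in DMSO1 at 6 h and 13.3 to 14.3 (median 13.99) against 9.75 to 13.9 (median 12.1) at 24 h, with overlap both times, and its values were 0.18 (SE 0.056, edgeR FDR 0.0035) and 0.21 (SE 0.061, edgeR FDR 0.0017, and 0.23 with SE 0.064 and FDR 0.0015 without library 1). The shared call at 6 h therefore holds changes of very unequal size, and the 5FU call was lost in 4 of 12 fits that left out 1 library (edgeR FDR up to 0.02).

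Ephx1, the microsomal epoxide hydrolase of xenobiotic metabolism, was shared at 24 h. It was 16.4 to 19.4 (median 17.9) CPM in DMSO2, 29.6 to 45.6 (median 40.03) in Ace and 117 to 169.6 (median 152) in Dox, all apart, and 112 to 120.04 (median 114) in 5FU. Library 1 of DMSO1, at 137, was above every 5FU library. In log2 fold change this was 3.02 (SE 0.25, edgeR FDR 1e-17) with Dox, 1.09 (SE 0.24, edgeR FDR 0.00014) with Ace and 1.60 (SE 0.25, edgeR FDR 9.4e-08, and 2.67 with SE 0.11 and FDR 2e-30 without library 1) with 5FU. The Dox minus 5FU difference at 24 h was 1.42 (SE 0.34, edgeR FDR 0.00016, and 0.35 with SE 0.14 and FDR 0.02 without library 1), so it passed the test with library 1 and did not without it. At 6 h the values were 1.25 (SE 0.24, edgeR FDR 4.9e-06) with Dox, 0.81 (SE 0.26, edgeR FDR 0.006) with 5FU and 0.21 (SE 0.25, edgeR FDR 0.54) with Ace.

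Fdxr, the reductase that feeds electrons to mitochondrial P450 enzymes, was higher with Dox at 24 h, at 12.3 to 17.2 (median 13.9) CPM against 7.39 to 10.6 (median 9.73) in DMSO2, without overlap, by 0.57 (SE 0.085, edgeR FDR 1.4e-08). Ace, at 8.98 to 11.1 (median 10.01) CPM, and 5FU, at 9.95 to 12.2 (median 10.6) against 9.44 to 11.04 (median 10.3) in DMSO1, gave 0.08 (SE 0.086, edgeR FDR 0.5) and 0.09 (SE 0.093, edgeR FDR 0.42, and 0.11 with SE 0.098 and FDR 0.33 without library 1). At 6 h no drug passed the test, with values from -0.01 to 0.22. Cd82, a membrane protein of the tetraspanin family, was lower with Ace at 6 h, at 59.995 to 63.5 (median 61.6) CPM against 78.6 to 87.01 (median 81.5) in DMSO2, without overlap, with a log2 fold change of -0.41 (SE 0.047, edgeR FDR 1.1e-10). Dox, at 66.99 to 85.8 (median 76.1) CPM, gave -0.12 (SE 0.045, edgeR FDR 0.015), and 5FU, at 61.9 to 77.3 (median 72.0) against 70.5 to 77.8 (median 74.9) in DMSO1, gave -0.08 (SE 0.049, edgeR FDR 0.17). The Dox value passed the test, as lower, in 3 of the 14 fits that left out 1 library (edgeR FDR down to 0.0023). At 24 h it was lower with Ace, at -0.34 (SE 0.046, edgeR FDR 4.9e-09), and with 5FU, at -0.29 (SE 0.050, edgeR FDR 5.9e-07, and -0.32 with SE 0.051 and FDR 1.5e-07 without library 1), and the Dox value was 0.08 (SE 0.045, edgeR FDR 0.094). Rps27l encodes a close relative of ribosomal protein S27, and reads shared with that gene would be divided by kallisto's estimate. It was higher with 5FU and Dox at both times, with 0.42 (SE 0.13, edgeR FDR 0.0052) and 0.69 (SE 0.12, edgeR FDR 1.6e-06) at 6 h and 1.07 (SE 0.13, edgeR FDR 2.8e-10, and 1.44 with SE 0.084 and FDR 5.7e-23 without library 1) for 5FU and 0.98 (SE 0.12, edgeR FDR 1.6e-10) for Dox at 24 h. With Ace it was -0.06 (SE 0.13, edgeR FDR 0.73) at 6 h and 0.20 (SE 0.12, edgeR FDR 0.18) at 24 h.

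**Figure D4:**
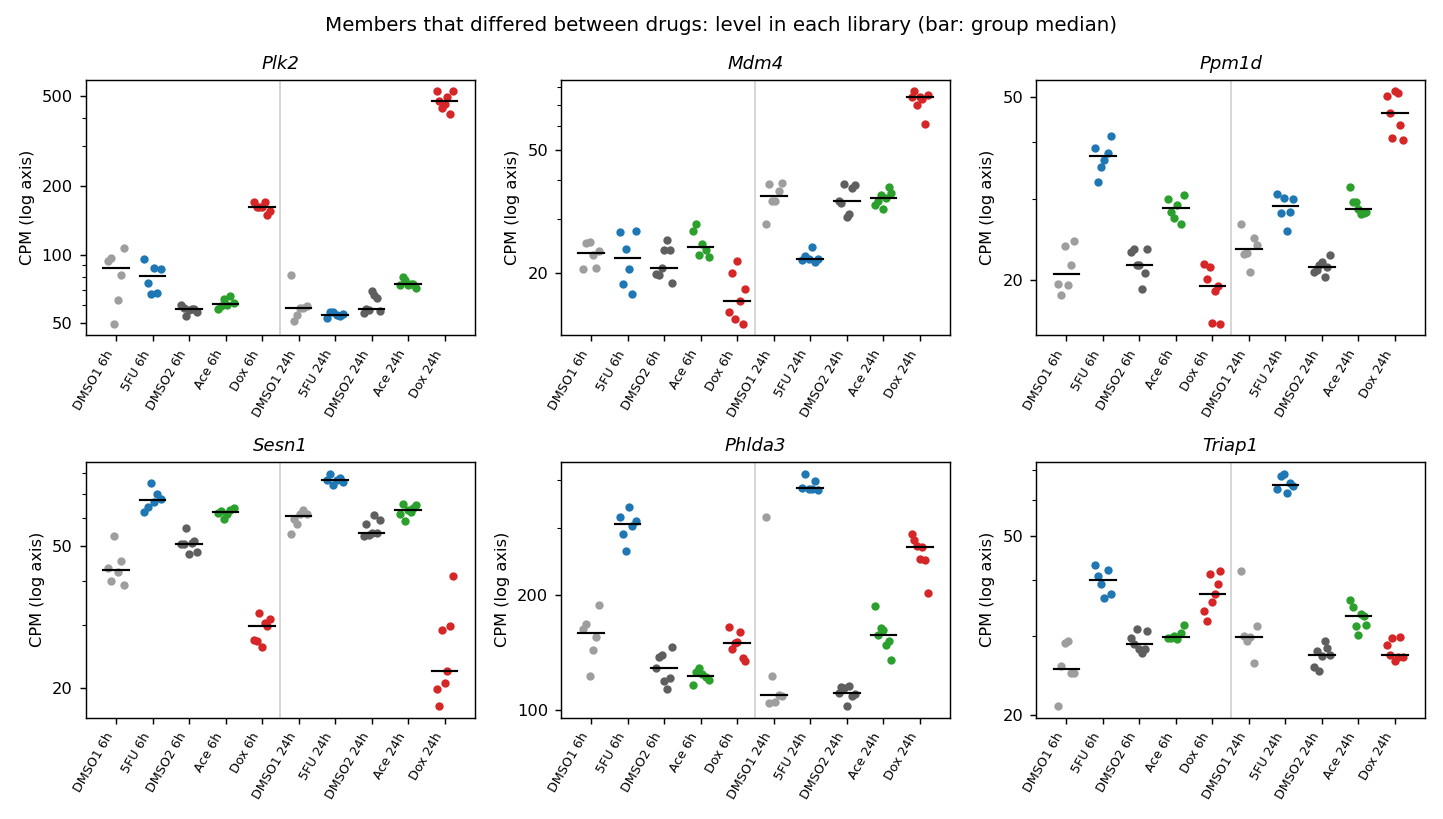
CPM (log axis) of 6 genes whose response differed between the drugs, in each library of the 10 groups; points are libraries, bars group medians, and the vertical line parts 6 h from 24 h. Plk2 is far higher with Dox than with the other drugs, Mdm4 and Ppm1d turn with Dox between 6 and 24 h, Sesn1 is low with Dox, and 5FU is the highest group for Phlda3 and Triap1 at 24 h.

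The Dox response of most of the genes was larger at 24 h than at 6 h. The response at 24 h minus that at 6 h was called higher for 24 of the 30 genes and lower for 2, Perp and Triap1, where 34% of all genes were called higher and 30.8% lower. The largest were Ddias at 2.42 (SE 0.28, edgeR FDR 1.4e-11), Tigar at 1.92 (SE 0.073, edgeR FDR 1.1e-32), Mdm2 at 1.91 (SE 0.20, edgeR FDR 1e-12) and Ephx1 at 1.77 (SE 0.34, edgeR FDR 4.4e-06). Eda2r, at 0.44 (SE 0.29, edgeR FDR 0.17), Ccng1, at -0.22 (SE 0.14, edgeR FDR 0.15), Rps27l, at 0.29 (SE 0.17, edgeR FDR 0.13), and Sesn1, at -0.31 (SE 0.12, edgeR FDR 0.02), did not pass the test. Without library 1 the counts were 25 and 3 (34.2% and 31.1%), with Rps27l higher and Ccng1 lower. With Ace the difference passed for Gtse1 and Ddias (5.58% of all genes higher, 6.06% lower) and was lower for none. In the lower direction 1 gene had an unadjusted p under 0.05 there, and DESeq2 called 2 genes in all. Without library 1 there were 9 with Ace (6.03% of all genes), by Mdm2, Cdkn1a, Ei24, Ephx1, Fas, Phlda3 and Aen. With 5FU it was higher for 2 genes, Rps27l and Triap1, and lower for 5, Plk3, Mdm4, Ppm1d, Aen and Cd82 (20.3% and 19.2% of all genes). Without library 1 it was higher for 11 and lower for 4 (21.3% and 20%), and Cdkn1a then gained 1.17 (SE 0.13, edgeR FDR 2.7e-11) and Ephx1 1.87 (SE 0.14, edgeR FDR 6.2e-17).

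**Figure D5:**
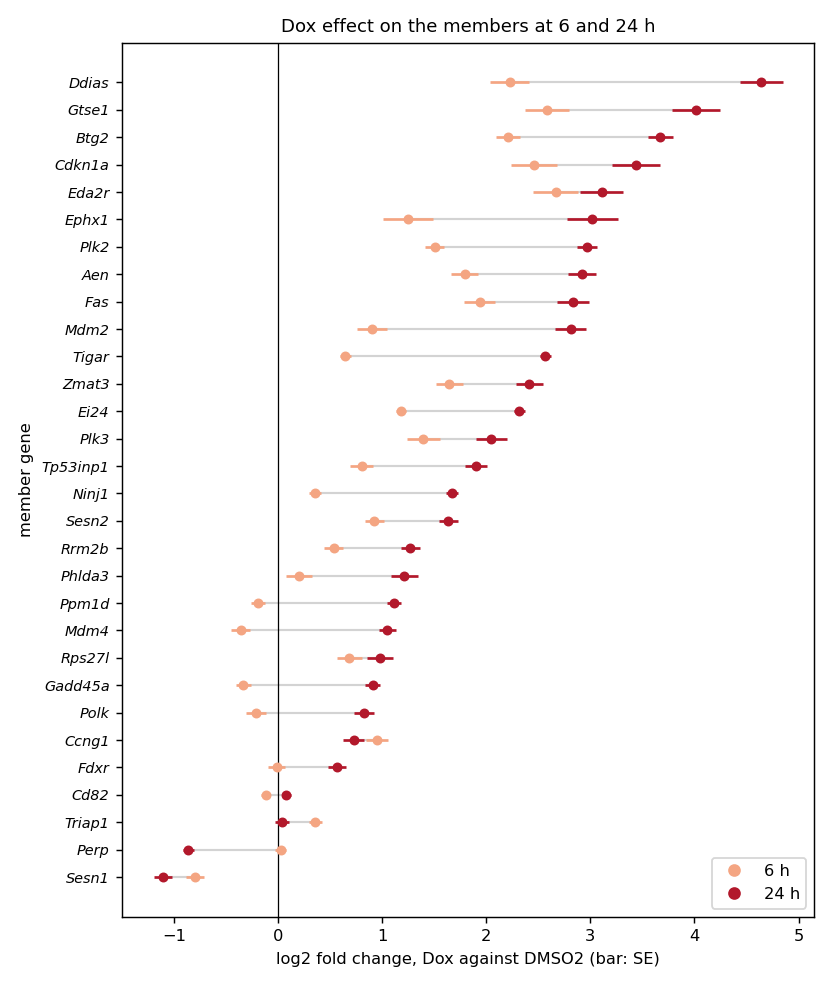
Log2 fold change of each gene with Dox against DMSO2 at 6 h (pale points) and 24 h (dark points), with standard errors as bars and genes ordered by the 24 h value. The dark point lies to the right of the pale point for all genes but Ccng1, Triap1, Perp and Sesn1.

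The sizes of the responses were also compared between drugs. At 24 h the Dox response was larger than the Ace response for 27 of the 30 genes and smaller for Sesn1, Perp and Triap1, and all 30 differences passed the test (40.7% of all genes higher, 39.9% lower). These 2 drugs were compared with the same DMSO2 libraries, so their difference is that between the Dox and Ace libraries. Dox exceeded 5FU at 24 h for 24 genes and fell below it for Sesn1, Perp and Triap1 (35.8% and 35.4%), and without library 1 for 23 and 6, the latter with Ccng1, Phlda3 and Rps27l (35.5% and 35.4%). At 6 h Dox was above 5FU for 9 genes and below it for 8 (22% and 24%), and without library 1 for 14 and 8 (22.5% and 24.3%). The genes that 5FU raised more at 6 h were led by Sesn1, at -1.42, Ppm1d, at -1.0, Mdm2, at -0.92, and Polk, at -0.90 on the log2 scale of Dox minus 5FU. Those that Dox raised more were led by Eda2r, at 2.30, Plk2, at 1.54, and Btg2, at 1.22. At 6 h Dox was above Ace for 22 genes and below it for 5 (30.6% and 31.4%), and without library 1 for 23 and 5 (30.9% and 31.8%). Ace was below 5FU for 15 genes and above it for 2, Gadd45a and Rrm2b (13.8% and 17.1%), and without library 1 for 18 and 2 (14.4% and 17.5%). At 24 h Ace was below 5FU for 8 and above it for 5 (18.2% and 19.1%), and without library 1 for 16 and 2 (19.7% and 19.8%).

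The same genes were compared between the controls as a background. At 24 h none of the 30 differed between DMSO1 and DMSO2 by edgeR (0.137% of all genes were higher and 0.295% lower in DMSO1), although 19 had an unadjusted p under 0.05 and DESeq2 called 3. Without library 1 none did either (0.00687% and 0.0618%), and 2 had an unadjusted p under 0.05. At 6 h Gadd45a, Plk2 and Ninj1 were higher in DMSO1, by 0.57, 0.52 and 0.25 on the log2 scale, and none was lower (9.87% and 6.6% of all genes). In the lower direction 5 had an unadjusted p under 0.05, and DESeq2 called 4 genes in all. Without library 1 there were 6 higher and 1 lower (10.3% and 7.08%). From 6 to 24 h in the controls 8 genes rose and 9 fell (32.7% and 31.9%), or 8 and 16 without library 1 (32.2% and 32.1%). Over this time the log2 change was -1.22 (SE 0.16, edgeR FDR 8.9e-10) for Ddias, -0.85 (SE 0.040, edgeR FDR 4e-28) for Tigar and 0.75 (SE 0.038, edgeR FDR 1.3e-26) for Perp, so the drug responses at 24 h start from other levels than those at 6 h.

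Other genes of the pathway were taken from a list of regulators upstream of p53 (9 of 10 in the table) and one of further targets (26 of 27 in the table). Of the regulators 5 were higher and 3 lower with Dox at 24 h, 1 and 2 with 5FU, and 3 and 1 with Ace, and their median log2 fold changes were 0.35, -0.02 and 0.08. Of the further targets 17 were higher and 7 lower with Dox at 24 h, 13 and 6 with 5FU, and 13 and 3 with Ace, and the medians were 1.04, 0.22 and 0.19. At 6 h 13 of these targets were higher with Dox and 3 lower, 12 and 7 with 5FU, and 7 and 1 with Ace, while of the regulators 2 and 3, 1 and 5, and 0 and 1 were called. Without library 1 the counts with 5FU at 24 h were 0 and 2 for the regulators and 13 and 8 for the further targets, with medians of -0.03 and 0.26, and 8 further targets were higher and 1 lower with Ace at 6 h. The medians over all genes are those given above. Of all genes 40.4% were higher and 41% lower with Dox at 24 h, 28% and 27.8% with 5FU, and 18.2% and 19.1% with Ace. At 6 h these shares were 31.5% and 32.7% with Dox, 23.4% and 24.5% with 5FU, and 16.5% and 15.2% with Ace. Without library 1 they were 28.6% and 28.5% with 5FU at 24 h, and 17.1% and 15.7% with Ace at 6 h. The single values that follow were taken with library 1 kept. The highest values among called genes of both lists at 24 h were those of Sfn, the cell cycle inhibitor 14-3-3 sigma, at 5.43 (SE 0.26, edgeR FDR 3.9e-29) and Gdf15, a secreted stress hormone, at 5.40 (SE 0.31, edgeR FDR 4.3e-25) with Dox. With Ace they were Gdf15 at 3.15 (SE 0.29, edgeR FDR 4.1e-14) and E2f7, a repressor of cell cycle genes, at 1.88 (SE 0.15, edgeR FDR 8.1e-17), and with 5FU Gdf15 at 1.88 (SE 0.29, edgeR FDR 7.9e-08) and Polh, another translesion polymerase, at 1.06 (SE 0.12, edgeR FDR 3.5e-12). The lowest were Prkab1, a subunit of AMPK, at -0.87 (SE 0.060, edgeR FDR 5.5e-21) and Tnfaip8 at -0.81 (SE 0.083, edgeR FDR 1.1e-13) with Dox. Spata18, a protein of mitochondrial quality control, was lowest with both other drugs, at -1.89 (SE 0.19, edgeR FDR 2.2e-13) with 5FU and -0.57 (SE 0.15, edgeR FDR 0.0017) with Ace, followed by Btg1 at -0.73 (SE 0.074, edgeR FDR 3.9e-13) with 5FU and Dram1, a lysosomal protein of autophagy, at -0.44 (SE 0.10, edgeR FDR 0.00033) with Ace.

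Markers of cell types moved in the same libraries, and in bulk RNA fewer cells of a type and less RNA per cell cannot be told apart. Cardiomyocyte markers summed to 15265 to 21383 CPM with Dox at 24 h against 40826 to 53750.0 in DMSO2, 7 of the 9 were called lower and none higher, and none was at 0 in a group. With 5FU at 24 h the sum was 28251 to 30329 CPM against 39259.5 to 46182 in DMSO1 (5 lower, 1 higher), and with Ace 40255 to 58222 CPM (2 lower, 1 higher). Fibroblast markers summed to 2556 to 5050 CPM with Dox at 24 h, 5334 to 6048 with 5FU and 7648 to 9825 with Ace, against 15680 to 19740 in DMSO2 and 10361 to 20549 in DMSO1, with 9, 10 and 9 of the 10 called lower. Endothelial markers (7 genes) were lower with all 3 drugs at 24 h, 7, 6 and 5 of them for Dox, 5FU and Ace, and summed to 20.98 to 46.3 CPM with Dox against 257 to 339 in DMSO2. Macrophage markers (8 genes) summed to 31.9 to 42.97 CPM with Dox and 72.05 to 94.4 in DMSO2, and 7 were lower and 1 higher. Of 6 smooth muscle markers 3 were higher and 2 lower with Dox at 24 h. Of the 11 markers of proliferating cells 3 were higher and 5 lower with Dox at 24 h, and 0 and 3 with 5FU. Marker levels had also shifted at 6 h. All 7 endothelial markers were lower with Dox, at a median log2 fold change of -1.55 and a sum of 74.1 to 124 CPM against 218 to 275 in DMSO2, and 3 were lower with 5FU and 3 with Ace. Of the proliferation markers 9 were lower with 5FU, 8 with Ace and 8 with Dox at 6 h, and none was higher. Fibroblast markers were lower for 6 of 10 with Dox, 6 with Ace and 2 with 5FU. With Dox at 6 h 4 cardiomyocyte markers were higher and 3 lower, 4 smooth muscle markers higher and 1 lower, and 3 macrophage markers higher and 2 lower. What part these shifts have in the levels of the p53 pathway genes was not tested.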

How the data were processed

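Paired-end RNA sequencing was done on 65 cultures in 10 groups, and groups were taken from the sample labels. The authors deposited 1 table of estimated counts per gene, made with kallisto 0.46.0 on the rat Ensembl v96 transcriptome and summed to genes with tximport, from which genes with low counts had been removed. The strand setting is not given in the sources used here, so reads of overlapping genes on opposite strands cannot be told apart, and reads shared by near-identical genes were divided by estimate. The columns name the group but not the replicate, so library numbers are labels only.

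Gene IDs were matched to symbols with the RefSeq table of GRCr8 (14009 of 14554). Counts were scaled with TMM and tested with the quasi-likelihood test of edgeR 4.0.16 (R 4.3.3) in 1 model of all 65 libraries. Genes with at least 10 counts in at least 1 library were tested, and p-values were adjusted by Benjamini-Hochberg over all 14554. The model was tested on simulated data. Responses were compared by contrasts of the same model, 18 contrasts in all. Drug specificity required the call for 1 drug and a difference from both others. Members and gene lists were chosen with earlier results of these data known. Genes were described with their levels where they were shared, drug specific or of opposite direction, and by fold change otherwise. Alternatives were the DESeq2 1.42.0 Wald test and size factors, library totals alone, filterByExpr, no filter, an FDR below 0.1, a minimum change, a fit of the compared groups only and leaving out each library. Depth of 14332827 to 25738297 estimated reads limits precision only in low genes, and no pair of libraries of a group agreed within sampling noise (lowest chi-square per gene 2.84).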

Additional observations from a re-analysis of the deposited data

Results flagged for a closer look

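A library's level was set apart where its gap to the nearest library of its group, divided by the range of the group, passed Dixon's 95% critical value. Of 300 such tests (30 genes in 10 groups) 26 passed, and chance alone gives about 1 in 20. Library 1 of DMSO1 at 24 h accounted for 15 of the 26, each time on the high side. Its levels were 2077 CPM for Ccng1, 699 for Cdkn1a, 320.3 for Phlda3, 198 for Rps27l, 191 for Mdm2, 137 for Ephx1, 109 for Ei24 and 106 for Aen. They were 88.03 CPM for Gtse1, 81.5 for Plk2, 67.3 for Tp53inp1, 50.1 for Eda2r, 34.3 for Zmat3, 25.4 for Fas and 9.11 for Ddias. Library 7 of Ace at 24 h was low for 2 genes, with 23.4 CPM for Gtse1 and 61.1 for Btg2. The other 9 were spread over 9 libraries. They were Mdm4 in library 4 of 5FU (24.4 CPM) and library 6 of Dox (60.9) at 24 h, and Eda2r in library 5 of DMSO2 at 24 h (6.96). At 6 h they were Zmat3 in library 7 of DMSO2 (9.96), Fas in library 4 of Dox (24.7), Ddias in library 3 of Ace (7.74), Polk in library 6 of DMSO1 (6.30), and Gadd45a in library 3 of DMSO1 (89.2) and library 5 of DMSO2 (82.2).

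The response at 24 h differed from that at 6 h by at least 1 on the log2 scale, with an edgeR FDR below 0.01 for the difference, in 19 cases. With Dox the differences were 2.42 for Ddias, 1.92 for Tigar, 1.91 for Mdm2, 1.77 for Ephx1, 1.46 for Plk2, 1.46 for Btg2, 1.43 for Gtse1 and 1.41 for Mdm4. They were 1.31 for Ninj1, 1.30 for Ppm1d, 1.24 for Gadd45a, 1.14 for Ei24, 1.12 for Aen, 1.10 for Tp53inp1, 1.04 for Polk and 1.01 for Phlda3. With Ace they were 2.0 for Ddias and 1.61 for Gtse1, and with 5FU -1.04 for Plk3. The list was made with library 1 of DMSO1 at 24 h kept, which enters every 5FU difference. Without it the 5FU differences of Cdkn1a and Ephx1 given above also met both conditions, and the list was not drawn up anew. Shares over all genes were not computed for this rule.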

How the results depend on the processing

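No called gene turned its direction in a drug comparison under the settings tried, while values that had not passed the test, such as those of Perp with Dox and 5FU and Ninj1 with 5FU at 6 h, changed sign with library totals alone. Without a filter on low counts nothing changed, since all 30 genes passed it. Of the 180 values (30 genes in 6 drug comparisons), calls were lost in 5 when only the compared groups were fitted, in 2 with DESeq2's size factors, in 1 with the DESeq2 Wald test, in 1 with filterByExpr and in 7 with library totals alone, and 9 and 2 were gained with compared groups only and with library totals alone. Scaling by library totals alone moved the median of all genes by -0.154 (log2) with Dox at 6 h. At an FDR below 0.1 there were 16 genes higher with Ace at 6 h, 17 and 8 whose 5FU and Ace responses differed between times, 12 and 14 that differed between the controls at 6 and 24 h, and 5 specific to 1 drug at 24 h. With a change of at least 1 on the log2 scale also required, 8 were higher with 5FU, 0 with Ace and 12 with Dox at 6 h, 12 with 5FU and 4 with Ace at 24 h, while 0 were lower with Ace or Dox at 6 h and with 5FU or Ace at 24 h and 1 with Dox at 24 h. Then 1 and 16 differed between times for 5FU and Dox, 4, 12 and 6 between Dox and 5FU, Dox and Ace, and Ace and 5FU at 6 h, 19 and 1 between Dox and Ace and between Ace and 5FU at 24 h, 0 between the controls at 6 h and 1 between times in the controls. Shared genes were then 0 at 6 h and 4 at 24 h, 13 were specific at 24 h and 0 were higher in all 6 comparisons. With library totals alone 6 were higher with Ace at 6 h, 5 differed between times for Ace, 6 and 3 differed between the controls at 6 and 24 h, 3 were shared at 6 h and 2 were higher in all 6 comparisons. Between the controls at 24 h, 2 differed with DESeq2's size factors, 2 with filterByExpr and 3 with DESeq2. With the compared groups only, 16 were higher with Ace at 6 h, 4 and 11 differed between times for 5FU and Ace, 11 were shared at 6 h and 9 were higher in all 6 comparisons. The cause was not tested for any of these. Apart from the fit without library 1, shares over all genes are not given for the settings of this paragraph. These counts therefore show only how the calls moved with the setting. Leaving out 1 library of the compared groups at a time gave 6 to 10 genes higher with Ace at 6 h (6 without library 7 of DMSO2), against 14 without library 1 of DMSO1 at 24 h, which is in neither group. It gave 5 to 15 whose 5FU response differed between times (15 without library 1 of DMSO1 at 24 h), 3 to 5 and 0 to 4 that differed between the controls at 6 and 24 h (at 6 h 6 were higher and 1 lower without library 1 of DMSO1 at 24 h), 3 to 10 shared at 6 h, 3 to 5 specific at 24 h and 1 to 7 higher in all 6 comparisons. No paired analysis was possible because the columns of the count table carry no replicate numbers. Depth was no limit for these genes, since the lowest count was 26.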
